A study of Papio anubis with 6 samples.

Results

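The genes described here make cholesterol and fatty acids or control that synthesis, and they were chosen by name from a list of 32 genes with 4 roles: the steps to squalene, the steps to cholesterol, the sterol sensor with its transcription factors, and fatty acid synthesis. Of the 32 names, 30 are among the 39023 genes that each deposited table lists. The cells were proerythroblasts, early red cell precursors, purified from baboon (Papio anubis) bone marrow as CD105+CD34-CD117+bRBC+ cells, where bRBC is a baboon red cell antigen. They came from baboons given RN-1, an inhibitor of the histone demethylase LSD1 (KDM1A), and from baboons without treatment. The long-term group (n = 2) was dosed at 0.25 mg/kg/d, 5 d per week, over more than 265 d, the short-term group (n = 2) received 0.25 mg/kg/d for 3 d, and the control group (n = 2) was untreated. The short-term and control samples came from the same 2 animals, and the long-term samples from 2 others, so that animal and length of treatment change together between the RN-1 groups.

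Cells build cholesterol from acetyl-CoA through mevalonate, isoprenoid units, squalene and lanosterol, and isoprenoids also serve heme a, ubiquinone and protein prenylation. When sterols in the endoplasmic reticulum run low, SCAP carries the SREBP transcription factors to the Golgi, where they are cleaved and released to switch on sterol and fatty acid genes. INSIG proteins hold SCAP back when sterols are plentiful. Red cell precursors make membrane lipid while they divide, and the mature red cell, which has lost its organelles, can no longer synthesize cholesterol.

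The values are the authors' means, 1 per gene and table, in log2 CPM, a log2 count scaled to library size. From the names of the values, the long-term table is taken to average the long-term and control samples. The short-term table is likewise taken to average the short-term and control samples, and the sources used here do not state this further. Neither table holds values per sample, so that no SD, standard error or overlap of groups can be given, and the effect of RN-1 on a gene, set against control, is not analysed here. Depth per sample is unknown from these means, which limits what can be said of low genes. The kit reads the poly(A) end and makes 1 fragment per transcript, so that levels of different genes need no length correction. Such reads count only where the annotation covers a gene's 3' end, and how well it does so for each gene was not tested. A low level of 1 gene beside another is therefore a low count, which need not be low expression. Of 10 proerythroblast and sort markers, 9 had means between 5.93 and 10.48 log2 CPM in the long-term table and between 5.82 and 10.47 in the short-term table, among them KIT (CD117) and ENG (CD105), whereas CD34 was listed without a mean in both. The liver markers ALB, APOA1 and TTR were also listed without a mean. Of the 4 fat cell markers, ADIPOQ and LEP were listed without a mean, FABP4 had 4.45 CPM in the long-term table and 0.476 CPM in the short-term table, and PLIN1 had 0.620 CPM in the long-term table and no mean in the short-term table.

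Most of the lipid genes were above the median gene with a mean in these cells. Of the 30 listed members, 29 had a mean in the long-term table and 28 in the short-term table, and 24 reached at least 0 log2 CPM (1 CPM) in both, or 80% of the listed members, against 27.5% of all listed genes. Many listed genes had no mean: of 39023, 17942 had one in the long-term table and 16355 in the short-term table. The member median was 4.63 log2 CPM (24.7 CPM) in the long-term table and 4.78 log2 CPM (27.4 CPM) in the short-term table, whereas the median over all genes with a mean was 2.81 and 2.85 log2 CPM in the same tables. Among genes of at least 0 log2 CPM, the median member percentile was 62.4 in the long-term table and 58.1 in the short-term table. FADS2, the desaturase of the first step in making long polyunsaturated fatty acids, was listed without a mean in both tables, and the lanosterol synthase LSS without a mean in the short-term table. ACLY, which makes cytosolic acetyl-CoA from citrate, is not listed under that name. The identifier LOC101024186, which RefSeq pairs with ACLY in Panubis1.0, had means of 3.17 log2 CPM in the long-term table and 3.12 in the short-term table, and it is left out of the counts. CYP51A1, the lanosterol demethylase, was found neither by name nor through RefSeq.

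**Figure D1:**
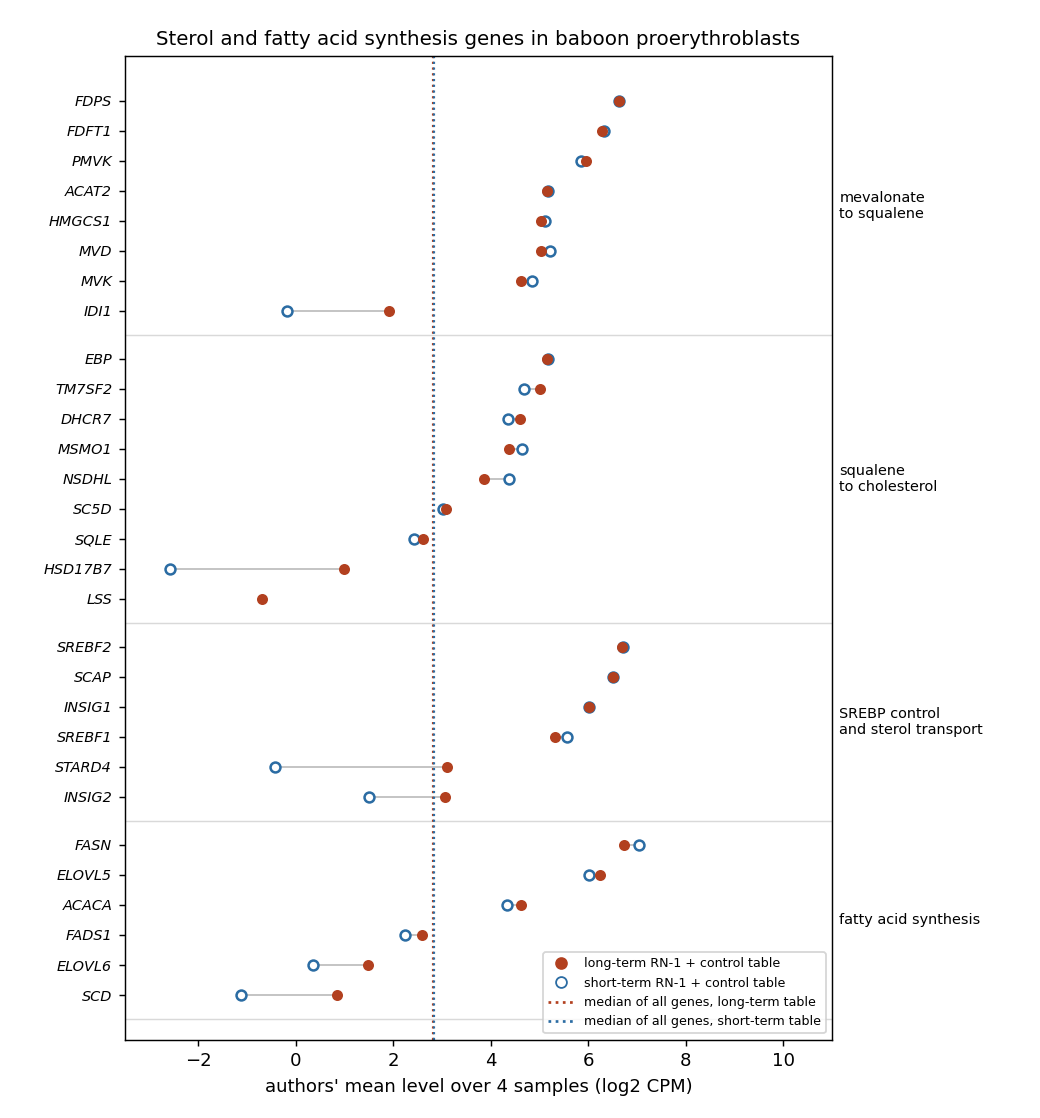
Mean level of each gene in log2 CPM (horizontal axis), grouped by role, with the long-term table as filled points, the short-term table as open points and dotted lines at the median of all genes of each table. For most members the 2 points lie close together, and the wide gaps belong to IDI1, HSD17B7, STARD4, INSIG2, SCD and ELOVL6, whose levels are low in the short-term table.

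The early steps of the sterol pathway were expressed at a high level, with the exception of IDI1. ACAT2, which joins acetyl-CoA units, had 35.9 CPM in the long-term table and 36.2 CPM in the short-term table. HMGCS1, which makes HMG-CoA, followed closely with 33.0 and 34.6 CPM in these tables. Mevalonate is then phosphorylated by MVK and PMVK and decarboxylated by MVD. Of these enzymes PMVK was highest, at 61.9 CPM in the long-term table and 57.6 CPM in the short-term table, and MVK lowest, at 24.6 and 29.0 CPM. The highest gene of this stretch was FDPS, which makes farnesyl pyrophosphate, the branch point to sterols, ubiquinone and prenylated proteins, with 99.5 CPM in the long-term table and 99.0 CPM in the short-term table. FDFT1, the squalene synthase that commits farnesyl pyrophosphate to sterols, came next with 77.7 and 79.9 CPM. FDPS thus stood above 88.6% of all genes with a mean in the long-term table and 87.8% in the short-term table. In human, FDPS has processed pseudogenes; whether reads were shared with copies in the baboon genome was not tested.

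IDI1, the isomerase between MVD and FDPS, stood apart from these neighbours. Its mean was 3.79 CPM in the long-term table and 0.892 CPM in the short-term table, while the other 7 genes of the stretch had between 24.6 and 99.5 CPM in the long-term table.

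After squalene the levels were lower. The median over the measured genes from squalene to cholesterol was 14.5 CPM in the long-term table (9 genes) and 20.7 CPM in the short-term table (8 genes), against 34.4 and 36.8 CPM over the 8 earlier genes. SQLE, the squalene epoxidase and a rate-limiting step of the pathway, had 6.15 CPM in the long-term table and 5.42 CPM in the short-term table. The level of FDFT1, just before it, was 12.6 times that of SQLE in the long-term table and 14.7 times in the short-term table. LSS, which closes the sterol rings, was among the lowest of all genes, at 0.619 CPM in the long-term table, above 6.60% of genes with a mean.

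The enzymes that trim lanosterol down to cholesterol ranged widely. EBP, the sterol isomerase, was highest at 35.6 CPM in the long-term table and 36.2 CPM in the short-term table. The C14 reductase TM7SF2 had 32.1 CPM in the long-term table and 25.9 CPM in the short-term table. LBR, a nuclear envelope protein that catalyses the same C14 reduction, was the highest of the other pathway genes, with 848 CPM in the long-term table and 851 CPM in the short-term table, or 26.4 and 32.9 times the level of TM7SF2 in the same tables. Demethylation at C4 is shared by MSMO1, NSDHL and HSD17B7, and these differed in level. MSMO1, the oxidase, had 20.9 CPM in the long-term table and 24.9 CPM in the short-term table, and NSDHL, the dehydrogenase, had 14.5 and 20.9 CPM. HSD17B7, the ketoreductase, was far lower, at 1.99 CPM in the long-term table and 0.168 CPM in the short-term table. Of the last enzymes, SC5D, a desaturase, had 8.46 CPM in the long-term table and 8.13 CPM in the short-term table. DHCR7, the final reductase of the Kandutsch-Russell branch, had 24.4 and 20.5 CPM.

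The sensor and its transcription factors formed the highest of the 4 roles, with a median of 51.0 CPM in the long-term table and 55.6 CPM in the short-term table. SREBF2, whose product mainly drives sterol genes, had 103 CPM in the long-term table and 104 CPM in the short-term table, and its escort SCAP had 90.5 and 91.6 CPM. SREBF1, whose product mainly drives fatty acid genes, had 40.2 CPM in the long-term table and 47.7 CPM in the short-term table. SREBF2 was therefore 2.57 times SREBF1 in the long-term table and 2.19 times in the short-term table, as ratios of the authors' means with no error. The site 1 protease gene MBTPS1 and the site 2 protease gene MBTPS2, which cleave SREBPs in the Golgi, had 44.1 and 9.96 CPM in the long-term table, and 50.2 and 10.0 CPM in the short-term table.

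INSIG1, itself a target of SREBPs, had a higher mean than INSIG2 in both tables. It had 64.6 CPM in the long-term table and 64.9 CPM in the short-term table, while INSIG2 had 8.41 and 2.86 CPM. STARD4, which carries cholesterol between membranes, had 8.62 CPM in the long-term table and 0.751 CPM in the short-term table.

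Fatty acid genes spanned the widest range of any role. FASN, the fatty acid synthase, was the highest of all members in both tables, at 107 CPM in the long-term table and 131 CPM in the short-term table, above 89.5% and 91.0% of genes with a mean. ACACA, the acetyl-CoA carboxylase that supplies its malonyl-CoA, had 24.7 CPM in the long-term table and 20.3 CPM in the short-term table. Its mitochondrial counterpart ACACB was near the floor, at 0.619 and 0.132 CPM. ELOVL5, an elongase of polyunsaturated fatty acids, was high, with 75.2 CPM in the long-term table and 65.1 CPM in the short-term table. ELOVL6, which lengthens palmitate, was at 2.79 and 1.28 CPM, and SCD, which makes oleate from stearate, at 1.81 and 0.463 CPM. FADS1, a desaturase of long polyunsaturated fatty acids, had 6.04 CPM in the long-term table and 4.72 CPM in the short-term table. Among the other pathway genes, ELOVL1, an elongase of very long chain fatty acids used in sphingolipids, had 124 and 127 CPM.

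On that reading the 2 tables share the control samples and differ in the RN-1 samples. A gene's mean in the long-term table minus that in the short-term table then bears on long-term against short-term samples, which also differ in animal. Each mean also holds the control samples, so a difference between the RN-1 groups would enter it only in part. The tables were normalized separately and how the means were averaged is not stated for either. The lowest mean was -0.86 log2 CPM in the long-term table and -3.58 in the short-term table, and the median difference over all genes was 2.67 at an average level under 0 log2 CPM, 1.55 between 0 and 2, 0.32 between 2 and 4, and 0.10 between 4 and 6. Positive differences of low genes therefore cannot be told apart from the making of the tables, and no test was possible.

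Over the 24 members with at least 0 log2 CPM in both tables, the median difference was -0.01, and 13 of the 24 were below 0, against a median of 0.13 and 31.9% below 0 over the 10716 genes at that level. The members sat at higher levels than genes at large, and the median difference over all genes shrinks with level. At a minimum of 4 log2 CPM, the medians were -0.0173 over 18 members and 0.04 over 6416 genes. Below 0 there were 12 of the 18 members and 40.7% of all genes. At the minimum of 0, only NSDHL, 1 of the 24 members, was lower in the long-term table by 0.5 or more on the log2 scale (-0.52), and 0.999% of all genes at that minimum were. The members nearest to that limit on its other side were FASN at -0.29, MSMO1 at -0.25, SREBF1 at -0.25 and MVK at -0.24. Higher by 0.5 or more were 2 of the 24 members, INSIG2 (1.56) and ELOVL6 (1.12), where 21.8% of all genes were. INSIG2 lay above 92.5% of genes averaging 2 to 4 log2 CPM, whereas ELOVL6 lay above 33.4% of those averaging 0 to 2. The median difference fell from 1.55 to 0.32 between these wide bins, so such a percentile also depends on a gene's place within its bin. Of the members under the minimum in the short-term table, HSD17B7 differed by 3.57, STARD4 by 3.52, IDI1 by 2.09 and SCD by 1.97. STARD4 lay above 94.96% and IDI1 above 69.3% of genes averaging 0 to 2 log2 CPM. HSD17B7 lay above 90.6% and SCD above 21.5% of genes averaging under 0. IDI1 (-0.16 log2 CPM in the short-term table) was just under the minimum and ELOVL6 (0.36) just above it.

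**Figure D2:**
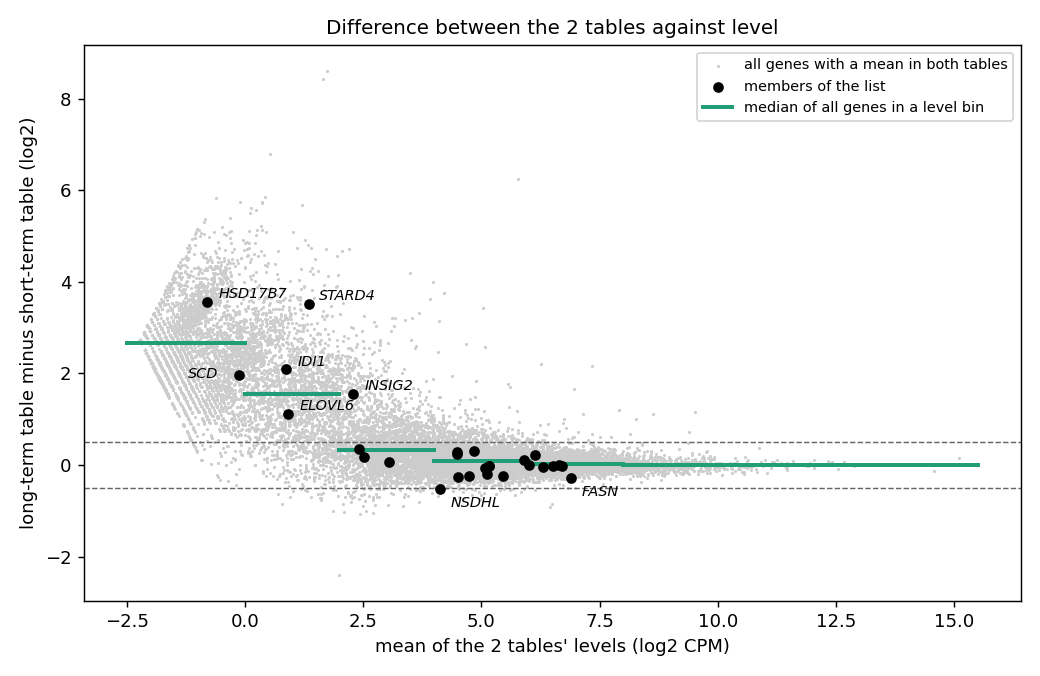
Long-term minus short-term table mean (log2, vertical axis) against the average of both means (log2 CPM, horizontal axis) for all genes (grey) and the members (black), with the median of all genes in each level bin (green) and dashed lines at -0.5 and 0.5. At low levels most genes lie above 0, where HSD17B7, STARD4, IDI1 and SCD fall, and NSDHL is the member below the lower dashed line.

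Set against genes of like level, several sterol and fatty acid genes lay toward the lower edge. NSDHL was above 0.548% of genes with an average of 4 to 6 log2 CPM, MSMO1 above 7.45%, SREBF1 above 7.84%, MVK above 8.52% and MVD above 12.1%, and FASN was above 1.65% of genes at 6 to 8 log2 CPM. Other members of the same levels did not share this position. TM7SF2 was above 78.4%, ACACA above 76.1% and DHCR7 above 71.7% of genes at 4 to 6 log2 CPM, and ELOVL5 above 84.5% at 6 to 8. FDPS, SREBF2, SCAP, INSIG1 and FDFT1 differed by -0.04 to 0.01 between the tables. The other pathway genes (22 at the level minimum) had a median difference of 0.20, with 0 lower and 6 higher by 0.5 or more. Over all genes at that minimum the median was 0.13, with 0.999% lower and 21.8% higher by as much. The largest of the 6 were MYLIP (0.88), the ubiquitin ligase that degrades lipoprotein receptors, ACSL5 (0.78), an acyl-CoA synthetase, and SOAT1 (0.71), which esterifies cholesterol. The 95th percentile over all genes was 1.82 between 2 and 4 log2 CPM, where MYLIP and SOAT1 averaged. It was 0.62 between 4 and 6, where ACSL5 averaged.

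Markers of other cell types were mostly at low levels, where the means of all genes also differed between the tables. HDC and ENPP3, of mast cells and basophils, stood above the median gene of the long-term table (7.03 CPM), at 9.42 and 13.3 CPM. The largest marker differences between the tables were those of HDC (5.74), ENPP3 (4.80), CD163 (4.50) and VCAM1 (3.70). The median over all genes was 1.55 between 0 and 2 log2 CPM, where HDC, ENPP3 and VCAM1 averaged, and the 95th percentile was 3.52. Under 0, where CD163 averaged, the median was 2.67 and the 95th percentile 3.91. Each of these differences, picked as the largest among the markers, was above the 95th percentile at its level. The 8 macrophage markers summed to 18.7 CPM in the long-term table and 1.77 CPM in the short-term table, with VCAM1 the highest (2.34 log2 CPM in the long-term table) and MRC1 without a mean in both. The 4 mast cell and basophil markers summed to 22.7 CPM in the long-term table and 0.654 CPM in the short-term table, with CPA3 and MS4A2 without a mean in both, and the 4 adipocyte markers to 5.07 and 0.476 CPM, mostly from FABP4. Of the 4 lymphocyte markers only MS4A1 had a mean, which in the long-term table (0.550 CPM) was at the lowest level of any gene, and the 3 hepatocyte markers had no mean in either table. The part of these cells in the levels of STARD4, INSIG2 and other low members was not tested. Fewer cells expressing a gene and less RNA per cell cannot be told apart in these bulk samples.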

How the data were processed

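Stranded 3' end libraries were made from 6 sorted proerythroblast samples. The authors used BWA MEM for alignment to Panu_2.0, featureCounts for reads per gene and edgeR for the group comparisons, whose versions the sources used here do not state. The deposited log2 CPM means, made by the authors and taken to be over the 4 samples of each table, are the only values used. The other columns hold the authors' fold changes, p-values, q-values, calls and pathway enrichments and were not used, so the test planned for values per sample was not run. CPM is 2 raised to the mean. Percentiles are over genes with a mean in a table (17942 long-term, 16355 short-term). Names turned into dates (24 per table) were not used by name. Differences are long-term minus short-term table, at a minimum of 0 log2 CPM in both. Level bins use the average of both means. Alternatives were minimums of 2, 4 (chosen after the data had been seen) or none, a difference of 0.25, centring on all genes and percentiles above the minimum. Counting was tested on simulated data. Python 3.11.15 and pandas 2.3.3 were used. Members and lists were chosen with earlier results of these data known. All members could be named; other genes came from a list of 34 pathway genes (31 listed, 27 with a mean in each table) and the marker lists. RefSeq (Panubis1.0) was used for names, with 31 of 32 members found by symbol, and for no coordinates.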

Additional observations from a re-analysis of the deposited data

How the results depend on the processing

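No paired analysis was possible because the tables hold 1 mean per gene and no value per sample, so the fit with or without the animal as a block was not run. The median difference of the members, -0.01, was -0.14 after centring on all genes, -0.0153 at a minimum of 2, -0.0173 at a minimum of 4 and 0.0317 with no minimum. The count of members lower by 0.5 or more was 1, and it was also 1 after centring (2.40% of all genes), at a minimum of 2 (0.820%) and with no minimum (0.654%). It was 0 at a minimum of 4 (0.452%), which leaves NSDHL out, and 3 of 24 with a difference of 0.25 (5.89%). The count of members higher by 0.5 or more was 2, also after centring (17.7% of all genes). It was 0 of 22 at a minimum of 2 (11.4%), 0 of 18 at a minimum of 4 (4.10%), 6 of 28 with no minimum (48.5%) and 6 of 24 with a difference of 0.25 (36.7%). Members at the level minimum in both tables were 24 at 0, 22 at 2, 18 at 4 and 28 with no minimum. The median member percentile was 68.2 in the long-term table and 68.4 in the short-term table, and 62.4 and 58.1 among genes of at least 0 log2 CPM. Without values per sample no difference was tested, and the means of HSD17B7, SCD, IDI1 and STARD4, under the minimum in the short-term table, bear the least weight.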
